A study of Triticum aestivum with 4 samples.

Results

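The genes described here are the wheat transcripts annotated to the Gene Ontology category immune system process in roots and leaves of MGS1 Aliança, a bread wheat cultivar used in rainfed farming in the Brazilian Cerrado. An isotig is an assembled transcript and an isogroup is a set of isotigs joined by shared reads, close to 1 expressed locus. Members were the isotigs listed under this category whose best match was a protein of Arabidopsis thaliana with an E-value of at most 0.001. Genes of the WRKY, phenylalanine ammonia-lyase, lipoxygenase, heat shock and ribosomal protein symbols, transcription factors, antioxidant enzymes and a few named genes were left out by the rule. The isotigs that share 1 Arabidopsis match were summed, with 1 isotig per isogroup within each match, and each such sum is called a gene. This gave 111 of 9199 genes in root and 88 of 7012 in leaf, or 127 of 10711 over both tissues. Of these, 72 were measured in both tissues, 39 in root alone and 16 in leaf alone.

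Tissue was taken from 5-week-old plants that were tillering. Control plants were watered to 100% of field capacity throughout, and drought plants to 75% for 2 weeks and then not at all for 3 weeks. The 3 plants of a pot were pooled, and roots and leaves were sequenced apart, so that the 4 libraries (control root, drought root, control leaf, drought leaf) had no replicate. Each comparison is therefore of 1 library with 1 library, and intervals and p-values cover counting error only, taking each read as a separate molecule.

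Plant immunity works in layers. Receptors at the cell surface bind microbial patterns such as chitin and start kinase cascades, calcium influx and an oxidative burst. Receptors inside the cell of the nucleotide-binding leucine-rich repeat (NLR) type sense pathogen effectors, often by guarding another plant protein, and trigger a local cell death called the hypersensitive response. Salicylic acid signalling is needed for local defence and for systemic acquired resistance, the heightened defence of distant tissue. Pathogenesis-related (PR) proteins, among them glucanases, chitin-binding proteins and osmotins, act on the invader. RNA silencing by argonaute and dicer proteins restrains viruses and also regulates the genes of the plant. Several of these proteins, osmotins above all, are known to respond to water deficit as well.

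Sequencing gave 299134 to 319997 reads per library, and the gene counts summed to 62635 to 108540 per library. An isogroup whose isotigs match different genes entered each of them, so that reads common to those isotigs were counted more than once. This held for 503 of 15269 root isogroups and 246 of 10460 leaf isogroups, and touched 16 root and 6 leaf members. Members held 2 to 186 reads per gene over both root libraries, with a median of 12, and 1 to 345 in leaf, with a median of 9. Under 10 reads were held by 48 of 111 root members and 45 of 88 leaf members. The member with fewest reads that passed the test had 24 in root and 17 in leaf, so changes of most rarer members were not detectable at this depth. The identity between isotig and Arabidopsis protein had a median of 56.5% over root members and 63.0% over leaf members, from 22.0% to 91.0%. Best matches can split the transcripts of one wheat gene family among Arabidopsis paralogs, so values of the glucanases, argonautes and NLRs are those of the match and not of a known wheat gene. At the limit of the rule, the isotig with the largest E-value in root was an RPM1 match at 0.001 with 2 control reads and none in drought. The nearest one outside it was another RPM1 match, at 0.002, with 2 and 1 reads. In leaf the nearest outside, an AT5G11250 match at 0.004, had 0 control and 8 drought reads. The rule also left out 13 root genes and 8 leaf genes of the category. One of them, RPS2, is an NLR gene whose symbol starts like those of ribosomal proteins, and it had 5 control and 0 drought reads in root and was not called.

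In root, the PR proteins and defence enzymes, a group put together after the values were seen, held calls in opposite directions. A senescence protease, 2 glucanases, an elicitor-induced dehydrogenase and a defence transporter fell under drought. An osmotin, a chitin-binding PR protein and the first enzyme of glutathione synthesis rose. In leaf the transcripts matched to the same Arabidopsis osmotin and PR protein rose, and no PR protein or defence enzyme was called down. By the MARS model of DEGseq at an unadjusted p under 0.001, fitted over all genes of the tissue, 6 of 111 root members were up-regulated and 8 down-regulated, which is 5.41% and 7.21%. Over all root genes tested, 3.63% were up-regulated and 5.16% down-regulated. In leaf 6 of 88 members were up-regulated and 3 down-regulated, 6.82% and 3.41%, beside 5.06% and 2.58% of all genes. The members' shares were somewhat higher in each direction, and with no test of the category what follows concerns single members.

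**Figure D1:**
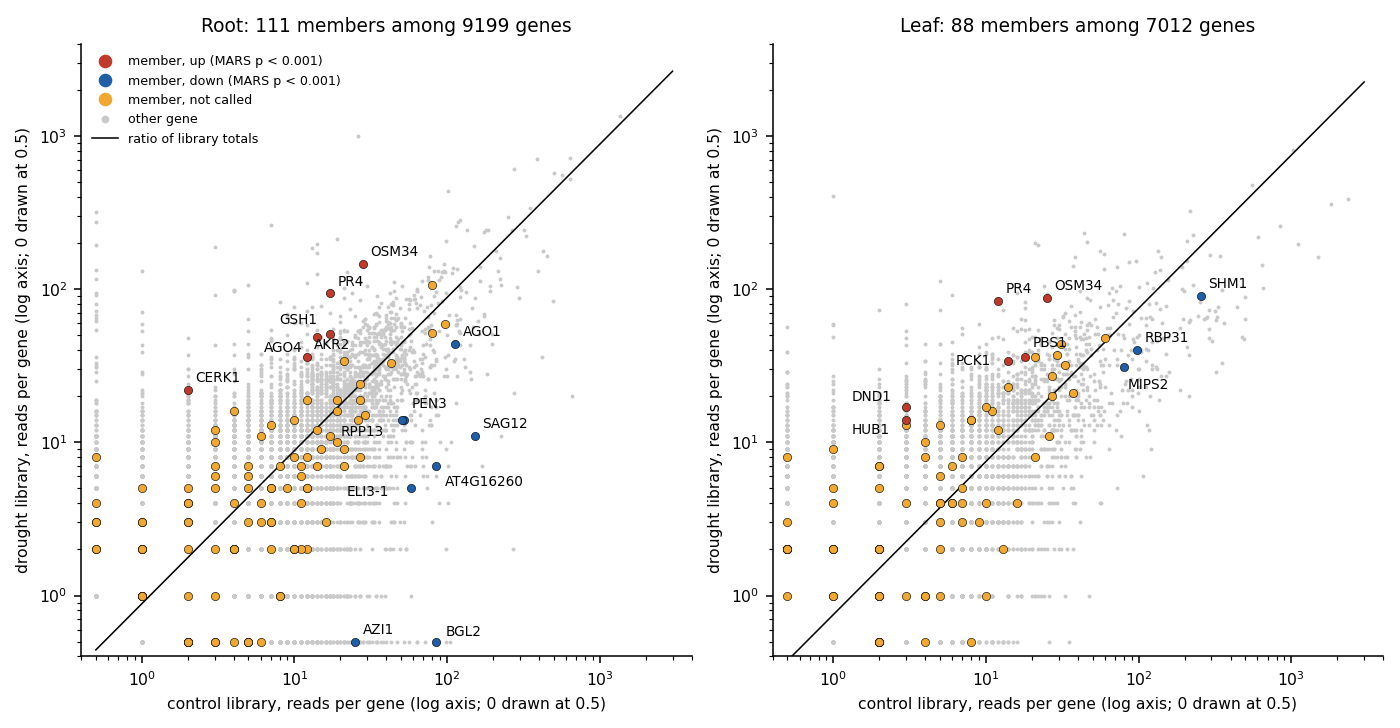
Reads per gene in the control library (x axis) and the drought library (y axis), both on log axes with 0 drawn at 0.5, for root (left) and leaf (right). Each point is a gene, members are coloured by their call, and the line is the ratio of library totals. In root BGL2 (84 to 0 reads) and AZI1 (25 to 0) lie on the lower edge and OSM34 (28 to 146) far above the line, and in leaf PR4 (12 to 84) and OSM34 (25 to 88) stand above it.

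All members together held 1704 of 108540 gene reads in control root and 1262 of 95915 in drought root. These are shares of 1.57% (95% exact Clopper-Pearson interval 1.497% to 1.65%) and 1.32% (1.24% to 1.39%). In leaf the shares were 1.32% (1.24% to 1.397%) in control, with 1098 reads, and 1.63% (1.53% to 1.73%) in drought, with 1018 reads. Among members with at least 10 reads, 21 of 63 in root had a higher and 42 a lower ratio under drought, and their median log2 ratio was -0.44 beside 0.02 for 4785 genes. In leaf 26 of 43 were higher and 17 lower, with a median of 0.60 beside 0.49 for 2971 genes. The leaf median of all genes was thus shifted upwards, and 0.49 is the level against which a leaf ratio should be read. Leaf folds given below are not corrected for this shift, and read against it rises would be smaller and falls larger. The leaf marker list of chlorophyll-binding, photosystem and Rubisco genes, 14 of 24 measured, went from 12.7% to 2.68% of leaf gene reads. The list of root transporters and expansins, 12 of 23 measured, went from 0.444% to 0.114% of root gene reads. In root a single leaf marker was measured, LHCB3 with 2 and 1 reads, and in leaf 6 root markers had 64 and 17 reads. The part of either list in the members' ratios was not tested. In pooled tissue, fewer cells of a type and less RNA per cell cannot be told apart.

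Receptors at the cell surface and their kinases numbered 5 in root, of which 1 rose and none fell. This group and those below were made by role after the values were seen, so the calls within each are a description only. Over all genes, 3.63% rose and 5.16% fell in root, and 5.06% rose and 2.58% fell in leaf. CERK1, the LysM receptor kinase that binds chitin, had 2 reads in control root and 22 in drought root, a 12.4-fold higher level (95% exact binomial interval 3.06 to 109). Of its 2 root isogroups, 1 held 0 control and 20 drought reads. Its isotig had 389 bases and 48% identity to the Arabidopsis protein. The other, at 55% identity, held 2 and 2 reads. The rise is thus that of 1 short match and not of a known wheat chitin receptor. In leaf CERK1 had 0 and 2 reads, too few for a statement. EFR, the receptor for a bacterial elongation factor peptide in Arabidopsis, had 12 and 2 reads in root and 10 and 4 in leaf and passed the test in neither tissue.

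PBS1, a cytoplasmic kinase guarded by an NLR in Arabidopsis, had 80 control and 106 drought reads in root, the most of any root member, and did not pass the threshold (1.499-fold, 1.11 to 2.03). In leaf it went from 18 to 36 reads and rose 2.66-fold (1.47 to 4.98). Relative to the median of all leaf genes, its log2 ratio was 0.92. The call in leaf was lost with all sequenced reads as totals, with TMM or median-of-ratios scaling, with the isotig of most reads alone and with matches at 1e-20.

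Of the kinase cascade, calcium and oxidative burst group, none of 10 root members passed the test and 1 of 10 in leaf rose. Of all leaf genes, 5.06% rose. DND1, a cyclic nucleotide-gated channel that carries calcium, had 3 control and 17 drought reads in leaf, 7.54-fold higher (2.18 to 40.2), and was no member in root. It did not pass with TMM or median-of-ratios scaling. The mitogen-activated kinase MPK6 had 10 and 2 reads in root and 3 and 4 in leaf, and MPK4 had 5 and 7 in root. Both held fewer reads than any member called in root. The calcium sensor TCH2 had 19 and 19 reads in root and 16 and 4 in leaf and did not pass.

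The NLR receptors of root were spread over many isogroups of few reads. Proteins with the NB-ARC domain, the nucleotide-binding switch of NLRs, were the match of 18 root members in 74 isogroups and of 8 leaf members in 30. The domain was taken from the annotation of the matched Arabidopsis protein, which for 15 root and 5 leaf members also carried the TIR domain. Whether the wheat transcripts encode either domain was not tested. Their isogroups held a median of 3 reads in root and 3.5 in leaf, and at most 18 and 14. Together the root NB-ARC members had 195 control and 99 drought reads, and those of leaf 82 and 57. Scaled to the library totals, the ratio of drought to control was 0.575 (0.446 to 0.735) in root. In leaf it was 0.925 (0.648 to 1.31), an interval that includes no change.

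RPP13, an NLR against downy mildew in Arabidopsis, had 51 control and 14 drought reads in root and fell 3.22-fold (1.76 to 6.30). The reads were spread over 16 isogroups with at most 7 reads each. Of these, 13 had a lower ratio in drought, 9 of them without a drought read, 3 had a higher one, and none passed the test alone. In leaf RPP13 had 8 reads in control and 0 in drought and was not called. The root call was lost with the isotig of most reads alone and with matches at 1e-20.

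RPM1, the NLR that guards RIN4, was the member with most isogroups, 30 in root and 22 in leaf. It had 80 and 52 reads in root (0.736-fold, 0.509 to 1.06) and 60 and 48 in leaf (1.06-fold, 0.713 to 1.58), and passed in neither tissue. With all isotigs summed or the isotig of most reads alone it was down-regulated in root. In root 1 isogroup went from 17 reads to 1 and was down-regulated, while another went from 0 to 15 and was up-regulated. The sum over isogroups thus held opposite movements. With the identity of its isogroups between 23% and 43%, a match to RPM1 names a family of NLR transcripts and not its wheat counterpart.

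The other members matched to NLR or TIR proteins had 15 reads or fewer over both libraries of a tissue, and none passed. AT2G14080 had 0 control and 8 drought reads in root over 3 isogroups, AT3G44400 had 8 and 1, and AT1G72840 had 11 and 2. Among the partners of NLRs, none of 9 root and none of 7 leaf members passed. RIN4, the guarded membrane protein, had 21 and 7 reads in root and 4 and 8 in leaf, and SRFR1, a negative regulator of effector-triggered immunity, had 4 and 16 in root and 6 and 4 in leaf. PAD4, a lipase-like partner of EDS1, had 0 and 4 reads in root and 10 and 1 in leaf.

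**Figure D2:**
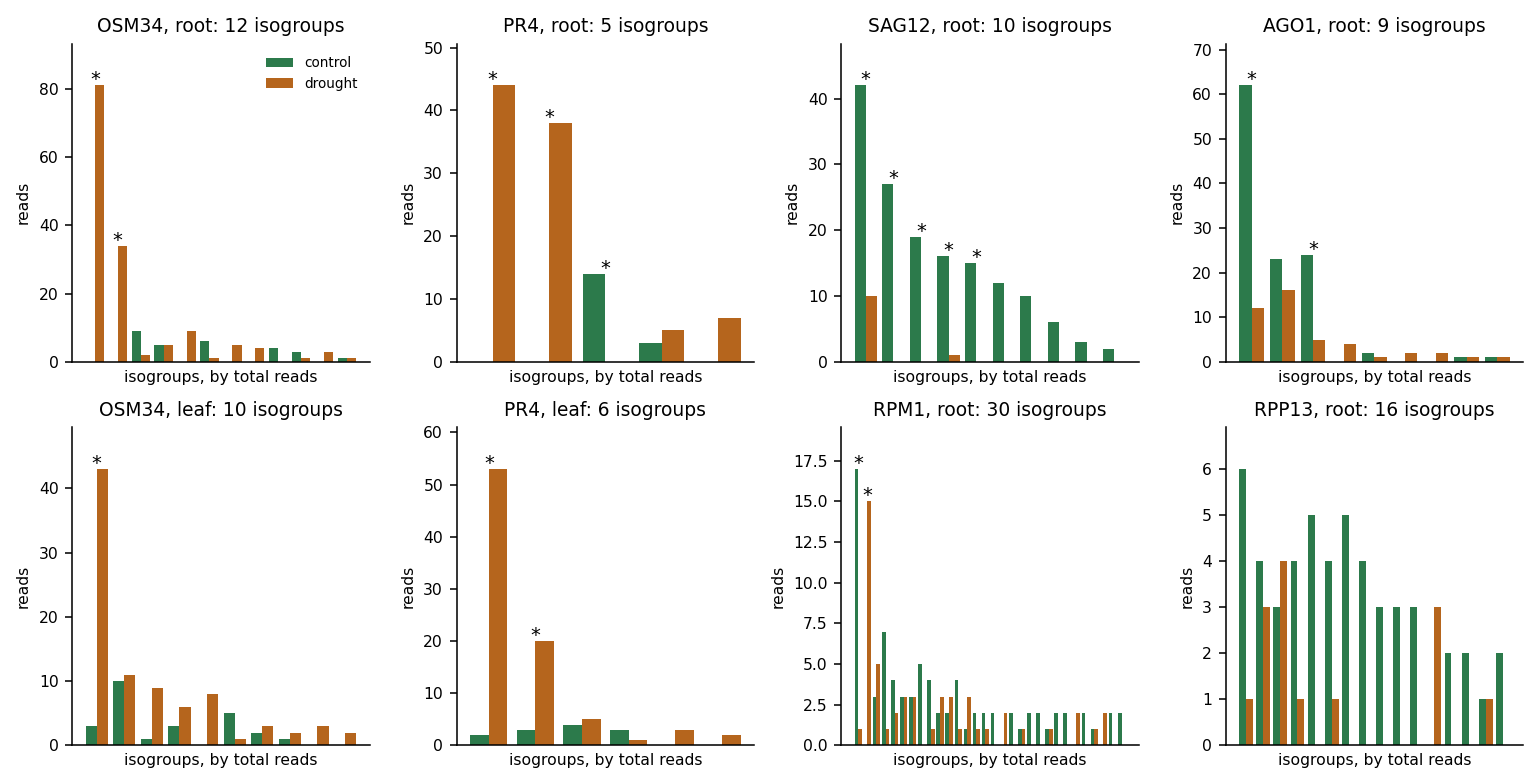
Reads of each isogroup in the control (green) and drought (brown) library for OSM34, PR4, SAG12, AGO1, RPM1 and RPP13 in root and for OSM34 and PR4 in leaf, ordered by total reads, with an asterisk where the isogroup passed the MARS test. The y axis is reads and differs between panels. SAG12 was lower in all 10 root isogroups, PR4 held isogroups called in both directions (0 to 44 and 14 to 0 reads), and no RPP13 isogroup passed.

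Of the salicylic acid and systemic acquired resistance group, 1 of 8 root members fell and none rose, and none of 4 leaf members passed. Of all root genes, 5.16% fell and 3.63% rose. AZI1, a lipid-transfer-like protein of systemic immunity, had 25 reads in control root and 0 in drought root, at least 7.36-fold lower against a floor of 3 reads. All of its 3 isogroups lacked a drought read, and with the isotig of most reads alone the call was lost. The 5 root members of the group with at least 10 reads had lower ratios in drought, with a median log2 of -0.82, though NPR1 and NPR3 share reads. The salicylic acid receptor NPR1 had 12 and 5 reads there, its relative NPR3 had 26 and 14, and FMO1, the monooxygenase that makes the systemic signal, had 14 and 7. None of these 3 passed the test. All NPR1 reads and 14 and 8 of the NPR3 reads come from isotigs of the same isogroup, so that the ratios of NPR1 and NPR3 are not separate measurements. In leaf, NPR3 had 0 and 8 reads and NPR4 10 and 17, and neither passed.

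PR proteins and defence enzymes gave most of the calls in root, with 3 of 12 members up-regulated and 5 down-regulated. Of all root genes, 3.63% were up-regulated and 5.16% down-regulated. The group was put together after the values were seen, so its share of the calls is a description only. OSM34, an osmotin of the thaumatin family (PR-5), had 28 control and 146 drought reads in root and 25 and 88 in leaf. It rose 5.90-fold (3.92 to 9.19) in root and 4.68-fold (2.98 to 7.63) in leaf. PR4, a hevein-like chitin-binding protein, had 17 and 94 reads in root and 12 and 84 in leaf, and rose 6.26-fold (3.71 to 11.2) and 9.32-fold (5.06 to 18.7). These were the only members called in both tissues, 2 of 72 measured in both, or 2.78%, beside 120 of 5500 genes, or 2.18%.

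Within both genes the rise came from few isogroups. In root, 2 of 12 OSM34 isogroups passed the test, at 0 to 81 and 0 to 34 reads, and 6 had no control read at all, while 4 were lower in drought. In leaf, 1 of 10 passed, at 3 to 43 reads, and 9 were higher. Of the 5 root isogroups of PR4, 2 were up-regulated, at 0 to 44 and 0 to 38 reads, and 1 was down-regulated, at 14 to 0. The last had an identity of 65% to the Arabidopsis protein, and the up-regulated ones 73% and 74%. In leaf, 2 of 6 passed, at 2 to 53 and 3 to 20 reads.

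The glucanases of root moved the other way. BGL2, the beta-1,3-glucanase also known as PR2 and a common marker of salicylic acid signalling, had 84 reads in control root and 0 in drought root, at least 24.7-fold lower against a floor of 3 reads. Its 3 isogroups had 42, 30 and 12 control reads and none in drought. AT4G16260, a second glucanase, had 84 and 7 reads and fell 10.6-fold (4.93 to 27.2), with all 3 isogroups lower. In leaf BGL2 had 8 and 14 reads and AT4G16260 had 29 and 37, and neither passed. Of 8 leaf isogroups of AT4G16260, 1 was up-regulated alone, at 1 to 12 reads.

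ELI3-1, an elicitor-activated alcohol dehydrogenase, had 58 and 5 reads in root and fell 10.3-fold (4.15 to 32.8), while in leaf it had 27 and 20. Of its root reads, 50 and 4 lie in an isogroup that also has an isotig matching AT1G52870. SAG12, a cysteine protease best known as a marker of leaf senescence, went from 152 to 11 reads in root, the largest absolute z of any root member, and fell 12.2-fold (6.63 to 24.98). All of its 10 root isogroups were lower in drought, 8 had no drought read, and 5 passed the test. Those with 42 and 10 and with 12 and 0 reads also hold isotigs that match CHR4 and CEP1. In leaf, the tissue for which it is known as a marker, SAG12 had 7 and 5 reads.

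PEN3, a plasma membrane transporter that exports defence compounds, had 52 and 14 reads in root and fell 3.28-fold (1.79 to 6.41). Of its 3 isogroups, 1 went from 40 reads to 0 and another from 5 to 12. With all isotigs summed, its log2 ratio was -0.63 and the call was lost. GSH1, the first enzyme of glutathione synthesis, had 17 and 51 reads and rose 3.39-fold (1.93 to 6.27) in root, nearly all in 1 isogroup with 17 and 49 reads, which also holds an isotig matching AT2G09990. In leaf it had 12 and 12 reads.

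Matches to the rice blast fungus Magnaporthe oryzae, counted with 1 isotig per isogroup, held 407 control and 299 drought reads in root. In leaf they held 28 and 288 reads, of which a single isogroup held 0 and 175. Whether these isotigs are of fungal origin was not tested, nor was any link to the levels of PR proteins.

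None of 10 cell death regulators passed the test in either tissue. Those with most reads were RCD1, a binding partner of transcription factors, with 43 and 33 reads in root and 27 and 27 in leaf, and ACD11, a sphingolipid transfer protein, with 12 and 19 in root. ACD1, the chlorophyll breakdown enzyme pheophorbide a oxygenase, had 14 and 23 reads in leaf.

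RNA silencing gave opposite calls for 2 argonautes of root. AGO1, the main argonaute of the microRNA pathway, had 113 and 44 reads and fell 2.27-fold (1.59 to 3.29). AGO4, which guides DNA methylation from small RNAs, had 14 and 49 reads and rose 3.96-fold (2.15 to 7.77). Of 9 AGO1 isogroups, 2 passed as down-regulated, at 62 to 12 and 24 to 5 reads, and the others held 39 reads or fewer each. Both argonaute calls, and that of GSH1, did not hold once plants were taken to vary with a coefficient of variation of 0.2. The other 8 silencing members of root, among them DCL1, DCL2, DCL4, RDR6 and AGO2, had 3 to 12 reads each and did not pass. In leaf AGO1 had 11 and 16 reads, AGO4 had 7 and 8 and DCL1 had 4 and 10, and none of 7 members passed.

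Among nuclear and RNA-binding members, none of 9 passed in root. In leaf HUB1, the ligase that adds ubiquitin to histone H2B, had 3 and 14 reads and rose 6.21-fold (1.73 to 33.7). RBP31, a chloroplast RNA-binding protein, had 97 and 40 reads and fell 1.82-fold (1.25 to 2.70). By Fisher's exact test at p under 0.001, neither passed, and HUB1 also missed the threshold with each of the other totals.

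Of 10 root members in protein folding, sorting and turnover, AKR2, an ankyrin chaperone of chloroplast outer membrane proteins, rose 3.39-fold (1.73 to 7.17), from 12 to 36 reads. The call was lost with the isotig of most reads alone, and an isogroup of 0 and 14 reads also holds an isotig matching AT5G52882. In leaf it had 21 and 36 reads and did not pass. COI1, the F-box receptor of jasmonate, had 97 and 59 reads in root (0.688-fold, 0.489 to 0.961) and 31 and 44 in leaf (1.89-fold, 1.17 to 3.09), short of the threshold in both. With all isotigs summed or the isotig of most reads alone COI1 was down-regulated in root. None of 8 leaf members of the group passed, of which the ubiquitin ligase PUB17 had 3 and 13 reads and the proteasome subunit PBF1 had 1 and 9.

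In the group of metabolism and other proteins, 2 of 10 leaf members fell and 1 rose, beside 2.58% and 5.06% of all leaf genes. SHM1, the mitochondrial serine hydroxymethyltransferase of photorespiration, had 255 and 90 reads in leaf, the most of any leaf member, and fell 2.13-fold (1.67 to 2.74). MIPS2, which makes inositol phosphate, had 80 and 31 reads and fell 1.94-fold (1.27 to 3.04). PCK1, the phosphoenolpyruvate carboxykinase of gluconeogenesis, had 14 and 34 reads and rose 3.23-fold (1.69 to 6.52). The PCK1 call was lost with each of the other totals, and that of MIPS2 with Fisher's exact test, with a minimum of 2-fold and with matches at 1e-20. In root SHM1 had 27 and 19 reads, MIPS2 19 and 16 and PCK1 9 and 5, and none of 8 members of this group passed.

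**Figure D3:**
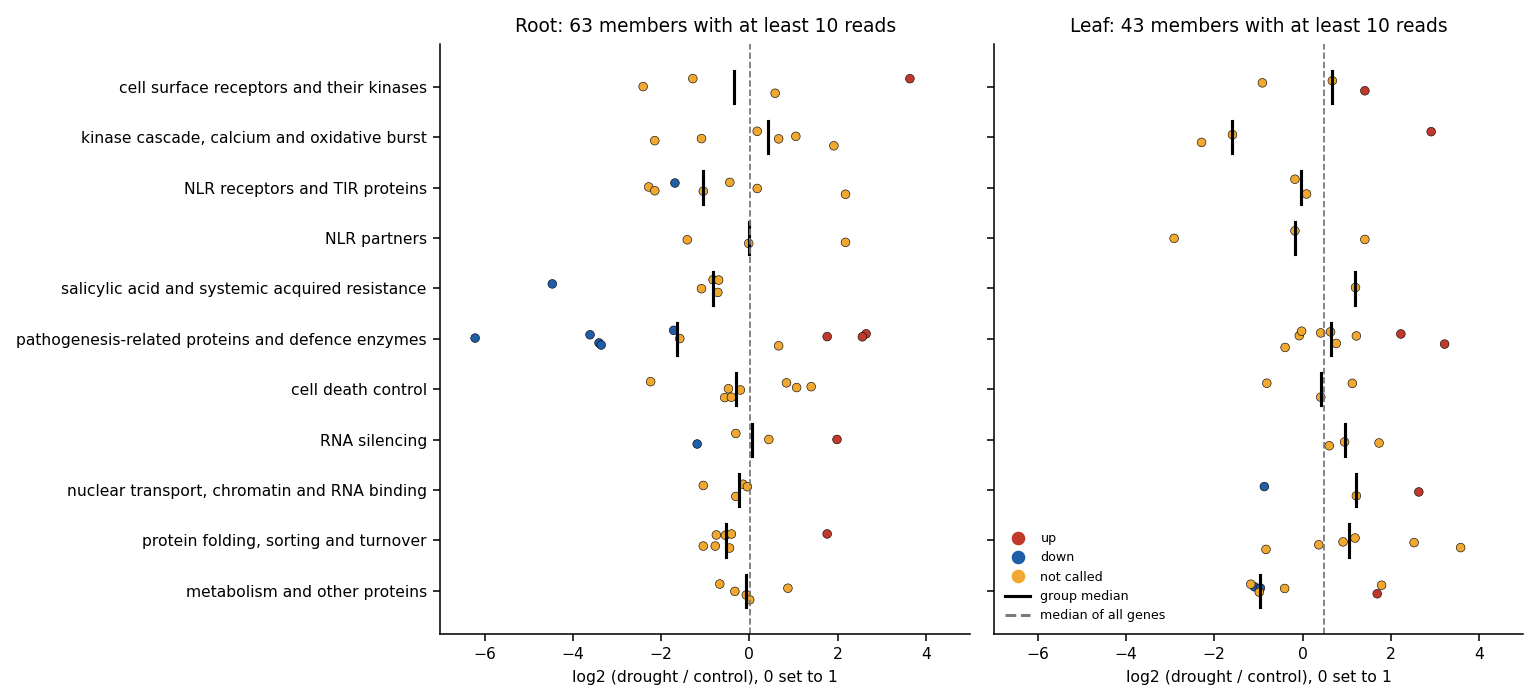
The log2 ratio of drought to control reads (x axis, 0 set to 1) of the 63 root (left) and 43 leaf (right) members with at least 10 reads, by the known role of the matched protein. Points are members coloured by call, bars are group medians and the dashed line is the median of all genes (0.02 in root and 0.49 in leaf). The PR proteins and defence enzymes of root spread widest, from BGL2 at -6.21 to PR4 at 2.65, in groups made after the values were seen.

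The test was also run on single isogroups. Of 269 pairs of gene and isogroup among root members, 10 were up-regulated and 15 down-regulated, 3.72% and 5.58%, beside 2.68% and 3.26% of all 15817 pairs. In leaf 8 of 179 were up-regulated and 3 down-regulated, 4.47% and 1.68%, beside 3.55% and 2.53% of 10730. The members' shares were thus higher than those of all pairs except among the down-regulated of leaf, and the difference was not tested. The isogroups called were those of 8 genes in each direction in root. The median isogroup of a member held 5 reads in root and 4 in leaf.

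The levels of the named members in the 4 libraries were set out as reads per 100000 gene reads with exact Poisson intervals. A symbol found in both tissues is a shared Arabidopsis match and not a known shared wheat gene. Root and leaf were assembled apart, so levels are set side by side without a test. OSM34 stood at 25.8 (17.1 to 37.3) in control root and 30.0 (19.4 to 44.3) in control leaf, and at 152 (129 to 179) and 140 (113 to 173) in the drought libraries, with overlapping intervals between tissues in each condition. PR4 stood at 15.7 (9.12 to 25.1) and 14.4 (7.44 to 25.1) in the control libraries and at 98.0 (79.2 to 120) and 134 (107 to 166) under drought. BGL2 was at 77.4 (61.7 to 95.8) in control root, 9.60 (4.14 to 18.9) in control leaf and 22.4 (12.2 to 37.5) in drought leaf. In drought root it had no read, with an upper limit of 3.85 per 100000. SAG12 was at 140 (119 to 164) in control root and at 7.98 to 11.5 in the other 3 libraries, whose intervals overlap.

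**Figure D4:**
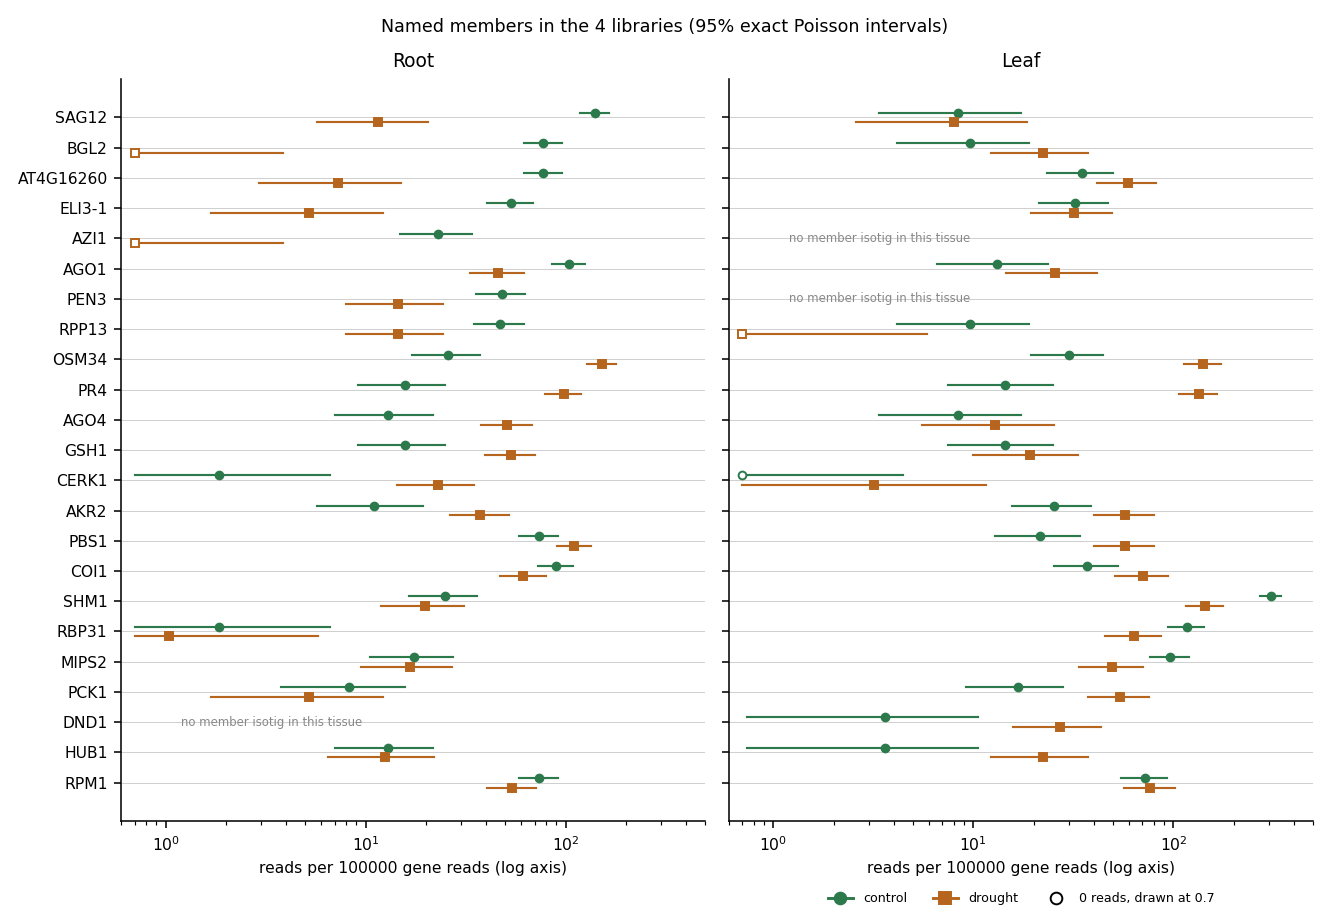
Level of each named member as reads per 100000 gene reads (x axis, log scale) in the control (green circles) and drought (brown squares) libraries of root (left) and leaf (right), with exact 95% Poisson intervals and open symbols for 0 reads. OSM34 and PR4 are higher under drought in both tissues, and SAG12, BGL2, AT4G16260 and ELI3-1 are lower in root.

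Whether the ratio of drought to control differed between root and leaf was tested for the 31 members with at least 10 reads in each tissue. The difference of the log2 ratios, with 0.5 added to every count, was divided by its standard error from counting, and p-values were Benjamini-Hochberg adjusted over 1991 genes. At an adjusted p under 0.05, 6 of 31 members differed, all with the lower ratio in root, beside 16.5% of the genes tested. These were AT4G16260, ELI3-1, BGL2, SAG12, COI1 and AGO1. For AT4G16260 the log2 ratio was -3.32 in root and 0.76 in leaf, a difference of -4.07 with a standard error of 0.65 (adjusted p = 7.9e-08). For BGL2 the ratios were -7.22 and 1.18 (adjusted p = 0.0018). For COI1, short of the threshold in each tissue, the ratios were -0.53 and 0.91 (adjusted p = 0.0064). With TMM totals, which lower the leaf ratios, 5 members passed. Of these 4 were shared, SHM1 passed with the higher ratio in root, and COI1 and AGO1 no longer passed. For OSM34 the difference was 0.33 with a standard error of 0.44 (adjusted p = 0.62), and for PR4 it was -0.56 with 0.58 (adjusted p = 0.51). GSH1 and AGO4, called in root and not in leaf, were not shown to differ between the tissues (adjusted p = 0.17 and 0.25).

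**Figure D5:**
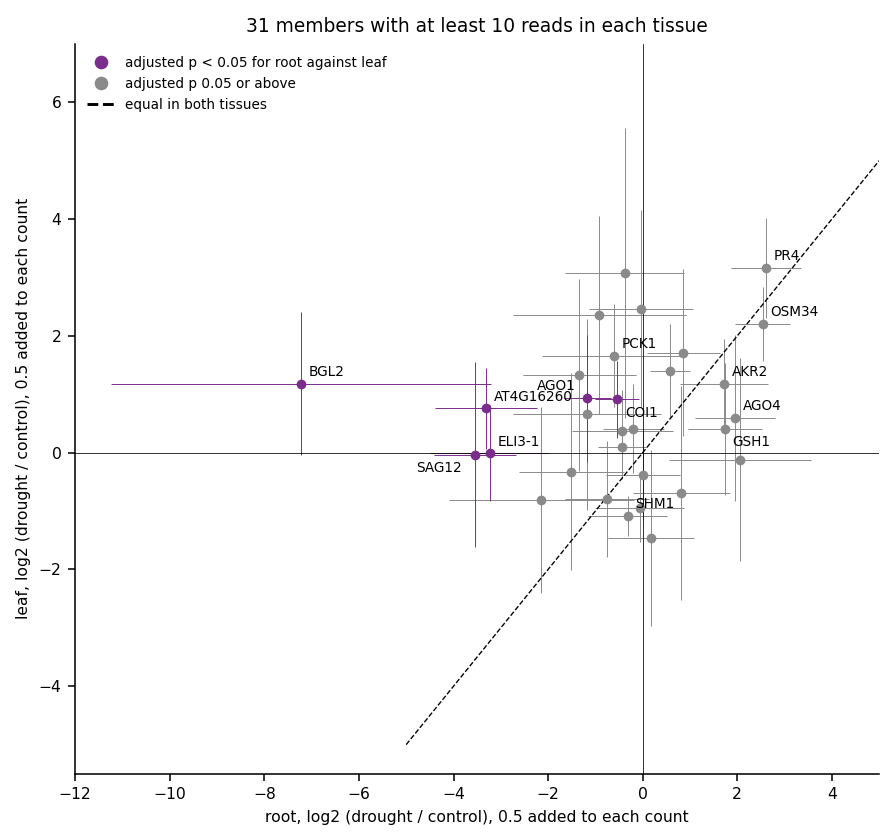
The log2 ratio of drought to control in root (x axis) and leaf (y axis), 0.5 added to each count, for the 31 members with at least 10 reads in each tissue, with 95% intervals from counting error. Purple points differ between tissues at an adjusted p under 0.05, and the dashed line marks equal ratios. All 6 purple members lie left of the line, and OSM34 and PR4 lie near it at the upper right.

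The Gene Ontology terms listed with the matched proteins allow a finer grouping of members, given as counts and sums without a test. The sums are raw reads, not scaled to the library totals of 108540 and 95915 in root and 83354 and 62635 in leaf. A sum can also rest largely on 1 member with many reads. A member can fall under several terms, and the calls are those already described, so the terms are not separate results. Of all genes, 3.63% rose and 5.16% fell in root, and 5.06% rose and 2.58% fell in leaf. Of 24 root members under plant-type hypersensitive response, 2 fell and none rose, and their reads went from 413 to 194. Of 20 under defence response to fungus, incompatible interaction, 3 rose and 3 fell, with 484 and 402 reads, and of 16 under systemic acquired resistance 1 rose and 3 fell, with 248 and 155. Of 15 under defence response to bacterium, incompatible interaction, 4 rose and none fell, with 275 and 501 reads. In leaf, 4 of 19 members under the fungus term rose and none fell, with 185 and 349 reads, and of 20 under hypersensitive response 1 rose and 1 fell, with 425 and 248.

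Immune genes beyond the members were followed through 11 lists of Arabidopsis symbols, which include some members and some genes of the category that the rule left out. Over all genes, 3.63% rose and 5.16% fell in root, and 5.06% rose and 2.58% fell in leaf. No list was tested as a set, so the counts describe single genes. The median log2 ratio of a list, over its genes with at least 10 reads, lay between -2.68 (salicylic acid, 11 genes) and 0.87 (nuclear pore and RNA factors, 15 genes) in root, where all genes had 0.02. In root, 8 of the 15 salicylic acid genes and 11 of the 18 NLR genes and partners are members. The medians of these lists thus partly restate values already described. In leaf it lay between -0.42 (pattern receptors, 9 genes) and 2.41 (nuclear pore and RNA factors, 7 genes), where all genes had 0.49. In root, 1 of 19 pattern receptors rose, and among kinase and calcium genes 1 of 24 rose and 3 fell. CPK5 and CPK1, calcium-dependent kinases, had 37 and 6 and 23 and 2 reads, and fell 5.45-fold (2.28 to 15.8) and 10.2-fold (2.51 to 88.9). CAM7, a calmodulin, fell as well, with 115 and 58 reads. RBOHD, the oxidase of the oxidative burst, rose 2.03-fold (1.39 to 3.01), from 44 to 79 reads. Of 18 NLR genes and partners 2 fell, RPP13 and ZAR1, the latter from 48 to 14 reads, 3.03-fold lower (1.64 to 5.95). Of 15 salicylic acid and systemic resistance genes 4 fell and none rose, the members BGL2 and AZI1 and, beside them, NHO1, a glycerol kinase, with 29 and 4 reads, and DIR1. DIR1, a lipid transfer protein of the systemic signal like AZI1, had 54 and 2 reads and fell 23.9-fold (6.29 to 202).

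None of 19 jasmonate and ethylene genes and none of 23 ubiquitin and proteasome genes passed in root. Of all root genes, 3.63% rose and 5.16% fell. Of 17 cell death genes 2 rose and 1 fell. The vacuolar proteases GAMMA-VPE and BETA-VPE went from 30 to 105 and from 12 to 33 reads, 3.96-fold (2.62 to 6.16) and 3.11-fold (1.57 to 6.62) higher, and LSD1, a zinc finger brake on cell death, fell 3.79-fold (1.63 to 10.2), from 30 to 7 reads. Of 18 antimicrobial, wall and secretion genes 3 rose and 2 fell, all of them members. Of 31 RNA silencing genes 2 rose and 1 fell. NRPD1B, the largest subunit of RNA polymerase V, which acts with AGO4, had 12 and 110 reads and rose 10.4-fold (5.71 to 20.7). Of 23 nuclear pore, splicing and RNA factors, CDC5, a splicing-associated MYB-like protein, rose 3.73-fold (1.80 to 8.49), from 10 to 33 reads. Of 14 chaperones and stress proteins 2 rose and 1 fell. The glycolytic enzyme GAPC1 fell 2.90-fold (2.05 to 4.18), from 141 to 43 reads. Its paralog GAPC2 rose 1.51-fold (1.24 to 1.84), from 181 to 242 reads, and the dehydrin ERD10 rose 1.81-fold (1.35 to 2.45), from 75 to 120 reads.

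In leaf, 1 of 17 pattern receptors rose and 1 fell, beside 5.06% and 2.58% of all leaf genes. The gene that fell was the receptor-like protein RLP7, 3.83-fold lower (1.92 to 8.47) at 51 and 10 reads. Of 19 kinase and calcium genes 1 rose, the member DND1, and none of 12 NLR, 11 salicylic acid and 18 jasmonate and ethylene genes passed. Of 18 cell death genes GAMMA-VPE rose 4.95-fold (3.16 to 8.04), from 25 to 93 reads. Of 15 antimicrobial, wall and secretion genes 4 rose and 1 fell, the risen ones being PR4, OSM34, LTP4 and the cysteine protease RD19. LTP4, a lipid transfer protein, had 56 and 177 reads, 4.21-fold higher (3.098 to 5.79), RD19 had 32 and 66, and GER3, a germin-like protein, fell from 16 reads to 0. Of 25 RNA silencing genes the translation factor EIF4G rose 3.28-fold (1.67 to 6.80), from 13 to 32 reads. Of 16 nuclear and RNA factors 3 rose, HUB1, MOS1 with 2 and 30 reads (19.96-fold, 5.07 to 172) and the chromatin remodeller SYD with 5 and 20 (5.32-fold, 1.94 to 18.2). Of 18 ubiquitin genes the deubiquitinase UBP12 rose 3.99-fold (1.63 to 11.1), from 7 to 21 reads, and of 10 chaperones ERD10 rose 7.05-fold (5.09 to 9.96), from 44 to 233 reads. Over all genes of the leaf, calls numbered 355 up and 181 down, and with TMM totals 173 up and 317 down.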

How the data were processed

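Each of the 4 libraries is the pooled tissue of 1 pot, sequenced on a Roche GS FLX Titanium. The authors assembled root and leaf separately, joining both treatments, and deposited raw read counts per isotig and library. In these counts a contig's reads enter every isotig that contains it, so within each gene only the isotig with most reads was taken from an isogroup. An isogroup with isotigs of several genes still enters each of them. The deposited annotation gives the best BLAST match with its E-value and its identity in percent. Unassembled single reads and the authors' own comparison (log2 fold changes, z, p-values and q-values) were not used.

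Gene counts are sums over isotigs with 1 Arabidopsis match at an E-value of at most 0.001. Their sums per library are the totals, 108540 and 95915 reads in control and drought root and 83354 and 62635 in leaf. The MARS model, named in the study's methods, was written in Python 3.11.15 (numpy 2.4.6, scipy 1.17.1, pandas 2.3.3), with 0 set to 1 and an unadjusted p under 0.001, and tested on simulated data. Folds carry 95% exact binomial intervals given the summed reads of both libraries. Where a library had no read, the fold is set against 3 reads and the interval gives only a lower limit.

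The members, lists and tests were chosen with earlier results of these data known, and the groups by role were made after the values were seen. The members named by rule are the 12 with the largest absolute z in each direction and tissue among those called, those called in both tissues, the 5 with most reads per tissue, and up to 3 called genes per list. Others were chosen after their values were seen, to describe a group. Alternatives were Fisher's exact test, adjusted p-values (Benjamini-Hochberg), edgeR 4.0.16 with a preset coefficient of variation (0.2 or 0.4), other totals (all sequenced reads, TMM, size factors of DESeq2 1.42.0, in R 4.3.3), another value for 0, minimum reads or fold, other sums of isotigs and matches at 1e-20. Figures were drawn with matplotlib 3.10.9. Isotigs carry no wheat gene identifier, so no genome position is given.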

Additional observations from a re-analysis of the deposited data

Results flagged for a closer look

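The ratio of drought to control differed between root and leaf, by the test of the difference itself, for 6 of 31 members. Of the 1991 genes tested, 16.5% differed. The median log2 ratio of all genes with at least 10 reads was 0.02 in root and 0.49 in leaf. The differences below are not corrected for that offset and compare 1 library per group. In each of the 6 members the log2 ratio was lower in root. Root minus leaf was -4.07 for the glucanase AT4G16260, -8.41 for BGL2, -3.52 for SAG12, -3.22 for ELI3-1, -2.11 for AGO1 and -1.44 for COI1. The value for BGL2 rests on 0 reads in drought root and depends on the 0.5 added to each count. Root reads of AT4G16260 went from 84 to 7, of BGL2 from 84 to 0, of SAG12 from 152 to 11, of ELI3-1 from 58 to 5, of AGO1 from 113 to 44 and of COI1 from 97 to 59. The leaf reads were 29 and 37, 8 and 14, 7 and 5, 27 and 20, 11 and 16, and 31 and 44 in the same order. With 1 added to each count the same 6 members passed, with at least 20 reads in each tissue 5 did, SAG12 falling under that minimum, and with TMM totals 4 of them, without COI1 and AGO1. SHM1 passed in addition with TMM totals, in the opposite direction, with the higher ratio in root.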

How the results depend on the processing

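No paired analysis was possible because each group holds 1 library, and for the same reason no library could be left out. No call of a named member turned to the opposite direction under the 13 alternatives. Members up in root numbered 6 and members down 8. With an assumed coefficient of variation between plants of 0.2 these were 3 and 5, and with 0.4 they were 0 and 3, SAG12, BGL2 and AZI1. All other alternatives stayed within 1.5 times of the root counts. Members up in leaf numbered 6, and 11 with Benjamini-Hochberg adjustment, 2 and 0 with a coefficient of variation of 0.2 and 0.4, 3 with all sequenced reads as totals, 2 with TMM, 2 with median-of-ratios size factors and 16 with all isotigs summed. Members down in leaf numbered 3, and 1 with Fisher's exact test, with a minimum of 2-fold or with matches at 1e-20, and 0 with either coefficient of variation. The median log2 ratio of all leaf genes was 0.49 with gene sums as totals, -0.07 with TMM and 0.98 with all isotigs summed, and that of root genes between -0.16 and 0.04 under the alternatives. BGL2 and SAG12 kept their root call under all 13 alternatives, and OSM34 and PR4 theirs in both tissues under all but the coefficient of variation of 0.4. AGO1, AGO4, GSH1, AKR2, PEN3 and RPP13 lost their root call with both coefficients of variation. HUB1, PBS1 and RBP31 in leaf each lost theirs under 7. The spread between pots is unknown, so the coefficients of variation are assumptions. Over all leaf genes 210 were up and 271 down with median-of-ratios size factors, and 238 and 250 with all sequenced reads as totals, where gene sums gave 355 and 181. With a coefficient of variation of 0.4, 46 root genes were up and 63 down, where counting error alone gave 334 and 475. Members under 10 reads, 48 in root and 45 in leaf, were too shallow for most changes to be detected.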
